A study of Homo sapiens with 3 samples.

Results

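The genes described are 10 genes of cellular iron handling, taken by Entrez identifier from a list of iron transport, ferritin, iron regulatory protein, heme and iron-sulfur genes, of 25702 genes listed in the counts. They are TFRC, SLC11A2 and SLC25A37 of iron uptake and transport, FTH1 and FTL of iron storage, IREB2 and ACO1 of iron sensing, ALAS1 and FECH of heme synthesis, and ISCU of iron-sulfur cluster assembly. All 10 passed the minimum of 10 counts in at least 1 library. The RNA came from Molm13, an established myeloid leukemia line with a FLT3 internal tandem duplication, grown in RPMI medium with fetal bovine serum. Cells received the vehicle DMSO or pyrvinium, an anthelmintic that gathers in mitochondria, at 50 nM or at 100 nM, and were harvested at 6 h. Each condition has 1 library, so no difference has a replicate check, and each test compares the reads of a pair of libraries, not the conditions. Differences between libraries are given on the log2 scale, with 95% intervals for counting error.

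Iron enters most cells bound to transferrin through the transferrin receptor, leaves the endosome through a metal transporter, and is either stored in ferritin or sent to mitochondria, where heme and iron-sulfur clusters are made. When iron is scarce, or when the cluster of ACO1 is lost, the iron regulatory proteins bind short RNA hairpins named iron-responsive elements. Binding near the start of the ferritin mRNAs blocks their translation, and binding at the end of the TFRC mRNA protects that mRNA from decay, so that of these mRNAs TFRC is the one whose level is best known to follow iron. Dividing leukemia cells carry much transferrin receptor because they need iron for DNA synthesis and respiration.

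The elements are shown because they join TFRC, FTH1 and FTL to the products of IREB2 and ACO1. The exon sequence of each gene in the counts was searched, on the strand of the gene only, for a C, then 5 bases, the loop CAGTGN, and 5 bases that pair with the former 5 (G with T allowed). Of 25619 genes, 255 (0.995%) held a match, and genes with longer exons had more room for one. TFRC held 4 matches, FTH1 1 and FTL 1, and IREB2, ACO1, SLC11A2, ALAS1, FECH and ISCU held no match. SLC25A37 was searched with the other genes and enters the total. Any match in it was left out of the counts per gene, so whether it holds one is not reported here. The search can miss known elements, as SLC11A2 held no match although some of its mRNA forms are known to carry an element. The matches of TFRC lie in its 3′ UTR on the minus strand and those of the ferritin mRNAs in their 5′ UTRs, by GENCODE. Coordinates are those of GRCh37 (hg19), FTH1 on the minus strand and FTL on the plus strand. The loop is in capitals, with the paired stem on either side of it.
FTH1, chr11:61735046-61735074: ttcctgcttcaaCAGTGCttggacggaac
FTL, chr19:49468592-49468620: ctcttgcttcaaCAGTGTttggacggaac
TFRC, chr3:195777850-195777878: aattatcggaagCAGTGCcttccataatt
TFRC, chr3:195777446-195777474: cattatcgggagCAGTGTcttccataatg
TFRC, chr3:195777381-195777409: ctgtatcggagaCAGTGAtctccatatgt
TFRC, chr3:195777334-195777362: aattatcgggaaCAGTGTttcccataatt

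The counts sum to 22677038 to 24075123 per library, and 12879 genes were tested. The labelled cell type was checked on markers. Of 8 myeloid markers, 7 passed the count minimum, at 836, 937 and 997 summed CPM (counts scaled to the library total) in DMSO, 50 nM and 100 nM, while CD14 had 1 or 2 counts. FLT3 carried the differences in that sum, with 6304, 9012 and 11181 counts, and the other 7 markers summed to 564, 537 and 534 CPM. Of 12 erythroid markers, 2 passed, and their summed level was 9.95 to 12.7 CPM, nearly all of it EPOR (239 to 294 counts). GATA1, KLF1 and ALAS2 were at 0 in every library, and HBB had 16 counts at 50 nM and 0 in the others. All 4 B-cell and all 4 epithelial markers stayed below the minimum, 1 of the 4 markers of iron-recycling macrophages (MARCO, at 7 to 11 counts) reached it, and 2 of the 4 T-cell markers did, CD4, which myeloid cells also express, at 780 to 809 counts and CD3D at 26, 18 and 13 counts in DMSO, 50 nM and 100 nM. Mitochondrially encoded genes took 5.59%, 4.68% and 5.11% of the counts in DMSO, 50 nM and 100 nM.

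Levels were compared between genes as RPKM, counts scaled by exon length and by library size. In the DMSO library FTL, the ferritin light chain, was highest at 1765.8, followed by FTH1, the ferritin heavy chain that oxidizes iron, at 185, and TFRC, the transferrin receptor, at 114. These lay above the level of 99.7%, 97.3% and 95.2% of the genes tested. ISCU, the scaffold on which clusters are built, was at 55.5, SLC25A37, which brings iron into mitochondria (mitoferrin 1), at 37.9, and IREB2 and ALAS1 at 25.8 each. At the low end stood SLC11A2, the metal transporter DMT1, at 4.41, ACO1 at 3.86 and FECH, which puts iron into heme, at 3.47, at percentiles 34.7, 32.4 and 30.6. By their 95% exact Poisson intervals, neighbours in this order were separated except IREB2 from ALAS1, SLC11A2 from ACO1 and ACO1 from FECH. In the 100 nM library, ALAS1 at 33.0 stood clear of IREB2 at 25.5, and SLC11A2 at 3.72 was listed below ACO1 at 3.98, with overlapping intervals.

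**Figure D1:**
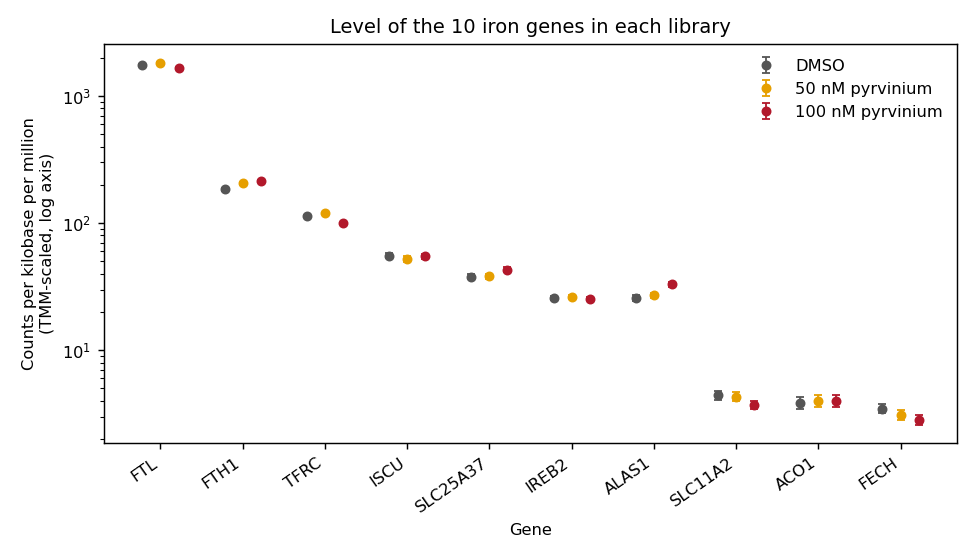
Level of each of the 10 iron genes (log axis, RPKM with TMM-scaled library sizes) in the DMSO (grey), 50 nM (orange) and 100 nM (red) libraries, with 95% Poisson intervals for counting error. FTL lay far above the rest in each library, and SLC11A2, ACO1 and FECH lay lowest.

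The levels of the ferritin genes are less certain than the others. Of the 75-base windows (the read length) of the spliced FTH1 exons, 32.9% occur letter for letter elsewhere in the nuclear genome, and 11.7% of those of FTL do, against 0 for the other 8 genes. How the counting treated reads with several places is not given in the sources used here. The ferritin copies listed in the counts held almost no reads, with FTH1P3 at 3, 11 and 7 counts in DMSO, 50 nM and 100 nM and FTLP10 and FTHL17 at 0. FTH1 also shares 179 exon bases with BEST1 on the opposite strand, which had 42, 40 and 54 counts, few beside those of FTH1. No exon of the other 9 genes overlaps an exon of another gene.

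The comparison of 100 nM pyrvinium with DMSO asks which transcripts differed after 6 h at the dose the study analysed. None of the 10 genes reached 2-fold. ALAS1 and FTH1 were the most clearly higher and TFRC the most clearly lower, and the largest fold, that of ALAS1, was 1.28. In bulk RNA, fewer cells that express a gene and less of its RNA per cell cannot be told apart. With a two-sided exact binomial test of the counts, Benjamini-Hochberg adjusted over all genes tested, 0 of the 10 were called at 2-fold against 2.35% of all genes, and 1 of the 10, ALAS1, at a difference of at least 25% (above the lower library) against 18.8%. Counting intervals lay above 0 for 3 genes (24.0% of all genes) and below 0 for 4 (25.3%). The median log2 difference of the 10 genes was -0.02, beside -0.0023 over all genes, and the median of its absolute size was 0.19 in both. By these shares and medians, which are not matched for depth, the 10 genes did not stand out from genes in general. All genes tested start at 10 counts in any library, and counting intervals narrow with depth. The same limit holds for the other comparisons below. A linear dose trend over the 3 libraries passed 2 of the 10 at an adjusted p, against 20.4% of all genes, and 6 at an unadjusted p, against 33.1%. No call at any fold was left for them when a biological coefficient of variation of 0.1 was assumed. The share of all genes left under that rule is not given.

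At 50 nM the differences from DMSO were smaller. No gene was called at 2-fold (1.06% of all genes) or at 25% (8.59%), 3 had intervals above 0 (18.6%) and 0 below (18.5%), and the median absolute log2 difference was 0.05 beside 0.14 over all genes. Both doses are set against the same DMSO library, so its deviations enter both. Between the doses, 100 nM against 50 nM, again 0 of the 10 were called at 2-fold (0.621% of all genes) or at 25% (3.26%), with intervals above 0 for 2 (12.5%) and below 0 for 3 (14.3%). TFRC and ALAS1 were the most different between the doses, each by more than 80% of all genes were.

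**Figure D2:**
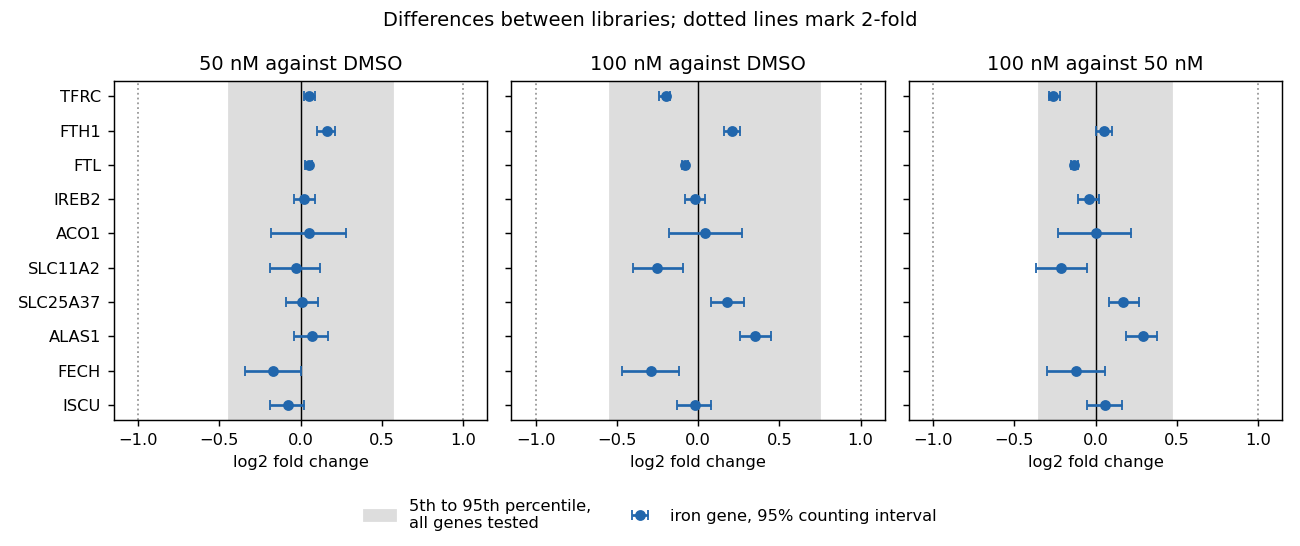
Log2 difference of each iron gene for 50 nM against DMSO, 100 nM against DMSO and 100 nM against 50 nM, with 95% exact intervals for counting error; grey marks the 5th to 95th percentile of all genes tested and dotted lines 2-fold. All 30 points lay inside the grey range, and at 100 nM against DMSO they ran from -0.29 for FECH to 0.35 for ALAS1.

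Among the uptake genes, TFRC (Entrez 7037, chromosome 3 from 195776155 to 195809032, 19 exons) had 14050 counts in DMSO, 14228 at 50 nM and 12698 at 100 nM. The 100 nM library was the low one, and the other libraries were close together. The log2 difference was 0.05 at 50 nM (interval 0.02 to 0.09, adjusted p = 0.0109) and -0.20 at 100 nM (interval -0.24 to -0.17, adjusted p = 4.74e-29), so that the level fell by 13.1%. Between the doses it was -0.26 (interval -0.29 to -0.22), so TFRC lay on opposite sides of DMSO at the 2 doses. SLC11A2 (Entrez 4891, chromosome 12 from 51373566 to 51422058, 20 exons) carries iron out of the endosome, and had 695, 663 and 610 counts. Its log2 difference was -0.03 at 50 nM (interval -0.19 to 0.12) and -0.25 at 100 nM (interval -0.40 to -0.09, adjusted p = 0.00694). These counts pool all its mRNA forms, of which only some are known to carry an iron-responsive element.

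SLC25A37 (Entrez 51312, chromosome 8 from 23386363 to 23430063, 4 exons) went the other way from the plasma membrane and endosomal genes at 100 nM. It had 1637, 1608 and 1929 counts, with DMSO and 50 nM alike and 100 nM high. The log2 difference was 0.01 at 50 nM (interval -0.09 to 0.11) and 0.18 at 100 nM (interval 0.08 to 0.28, adjusted p = 0.000814). Its paralog SLC25A28, mitoferrin 2, had 610, 555 and 535 counts, a log2 difference of -0.25 at 100 nM (interval -0.42 to -0.08, adjusted p = 0.0117). The mitoferrins therefore lay on opposite sides of DMSO at 100 nM.

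Of the ferritin genes, FTH1 (Entrez 2495, chromosome 11 from 61731757 to 61735132, 4 exons) had 5271, 5743 and 6336 counts, and each treated library was above DMSO. Its log2 difference was 0.16 at 50 nM (interval 0.10 to 0.21, adjusted p = 1.66e-07) and 0.21 at 100 nM (interval 0.16 to 0.26, adjusted p = 1.22e-13), with 0.05 between the doses (interval -0.00 to 0.10). FTL (Entrez 2512, chromosome 19 from 49468566 to 49470136, 4 exons), whose product helps the iron core to form, had 35646, 35983 and 35041 counts. It differed little between libraries, with 0.05 at 50 nM (interval 0.03 to 0.07) and -0.08 at 100 nM (interval -0.10 to -0.06). Counting error is so small for FTL that a percent change of -5.50% at 100 nM passed the test (adjusted p = 7.33e-13), while the spread between replicates is unknown.

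Ratios of counts within a library do not depend on how libraries are scaled, and 4 were compared at both doses with Fisher's exact test, 8 tests in all. The ratio of TFRC to FTH1 counts, the receptor mRNA against that of the ferritin heavy chain, was 2.67 in DMSO, 2.48 at 50 nM and 2.0 at 100 nM. It was lower by a log2 change of -0.11 at 50 nM (interval -0.17 to -0.04, adjusted p = 0.00187) and -0.41 at 100 nM (interval -0.47 to -0.35, adjusted p = 1.29e-36). FTH1 to FTL, the balance of heavy and light chains, went from 0.148 to 0.160 and 0.181, a log2 change of 0.29 at 100 nM (interval 0.23 to 0.35, adjusted p = 4.97e-23). Both ratios moved in dose order, and both rest on ferritin counts that copies elsewhere in the genome may affect. Whether the copies had a part in these differences was not tested. TFRC was not set against FTL, the ferritin mRNA of higher level. The log2 differences of TFRC and FTL were 0.05 each at 50 nM, and -0.20 and -0.08 at 100 nM.

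Neither iron sensor gene passed the test in any comparison. IREB2 (Entrez 3658, chromosome 15 from 78730518 to 78793798, 22 exons), which encodes the iron regulatory protein that is degraded when iron is ample, had 3813, 3783 and 3912 counts. Its log2 difference was 0.02 at 50 nM (interval -0.04 to 0.09) and -0.02 at 100 nM (interval -0.08 to 0.04), so a change of its mRNA by more than 0.09 lies outside the counting error of either. ACO1 (Entrez 48, chromosome 9 from 32384601 to 32450834, 21 exons), a cytosolic aconitase that becomes a regulatory protein when its cluster is lost, had 318, 321 and 341 counts. Its values were 0.05 at 50 nM (interval -0.18 to 0.28) and 0.04 at 100 nM (interval -0.18 to 0.27), and a smaller difference was not detectable at this depth. The ratio of IREB2 to ACO1 counts was 12.0, 11.8 and 11.5, with adjusted p of 0.837 and 0.683 at the 2 doses. Both proteins are controlled after translation, which mRNA counts do not show.

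The first and the last enzyme of heme synthesis went apart. ALAS1 (Entrez 211, chromosome 3 from 52232116 to 52248343, 12 exons), the rate-limiting synthase outside the erythroid line, had 1455, 1490 and 1936 counts, with 100 nM alone high. Its log2 difference was 0.07 at 50 nM (interval -0.04 to 0.17) and 0.35 at 100 nM (interval 0.26 to 0.45, adjusted p = 1.32e-11), or 27.9% higher, and 73.8% of all genes differed by less. FECH (Entrez 2235, chromosome 18 from 55212073 to 55253969, 11 exons), ferrochelatase, had 585, 508 and 497 counts, with both treated libraries below DMSO. Its values were -0.17 at 50 nM (interval -0.34 to 0.00) and -0.29 at 100 nM (interval -0.47 to -0.12, adjusted p = 0.00302). The ratio of ALAS1 to FECH counts was 2.49, 2.93 and 3.90, a log2 change of 0.24 at 50 nM (interval 0.04 to 0.44, adjusted p = 0.0284) and 0.65 at 100 nM (interval 0.45 to 0.85, adjusted p = 4.42e-10). At 100 nM this was the widest shift among the 4 ratios, and it pairs the highest with the lowest log2 difference of the 10 genes. The ratio therefore adds no evidence beyond the values of the single genes.

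ISCU (Entrez 23479, chromosome 12 from 108956294 to 108963160, 6 exons) had 1509, 1391 and 1543 counts, with 50 nM the lowest. Its log2 difference was -0.08 at 50 nM (interval -0.19 to 0.02) and -0.02 at 100 nM (interval -0.13 to 0.08), and neither passed the test (adjusted p = 0.261 and 0.741).

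**Figure D3:**
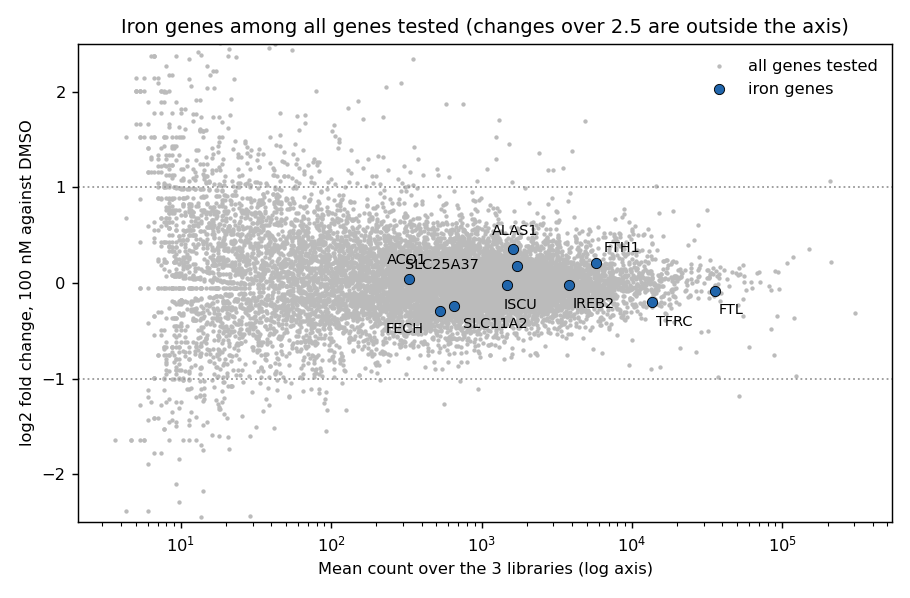
Log2 difference at 100 nM against DMSO (y axis) by mean count over the 3 libraries (log x axis) for all genes tested (grey) and the 10 iron genes (blue), with dotted lines at 2-fold. None of the iron genes lay beyond 2-fold, and ALAS1 was the highest of them. Whether they differed from genes of like depth was not tested.

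The 10 genes were set among 116 genes of 9 overlapping iron lists, of which 99 passed the count minimum. None of the 99 was called at 2-fold in any of the comparisons. Of all genes, 2.35% were called at 100 nM against DMSO, 1.06% at 50 nM against DMSO and 0.621% between the doses. At shares this low, the absence of calls is not read as a trait of iron genes. At 100 nM against DMSO, 18 of the 99 (18.2%) had intervals above 0, against 24.0% of all genes, and 35 (35.4%) below, against 25.3%, and the median log2 difference was -0.06. At a difference of at least 25%, 5 (5.05%) were called higher and 10 (10.1%) lower at 100 nM, against 10.5% and 8.32% of all genes. At 50 nM, 0 were called higher and 2 (2.02%) lower, against 4.71% and 3.88%. Counting intervals narrow with depth. Of the 99 genes, 95 had a mean of at least 100 counts, while all genes tested start at 10 counts in any library. The shares for these lists are therefore not matched to all genes for depth.

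Of 18 genes of iron uptake and transport, 11 passed the minimum, 1 (9.09%) with an interval above 0 and 6 (54.5%) below at 100 nM, against 24.0% and 25.3% of all genes, with a median of -0.20. SLC39A14, a zinc transporter that also takes up free iron, had 5846, 5276 and 4869 counts, a log2 difference of -0.32 at 100 nM (interval -0.38 to -0.27). MCOLN1, an iron-conducting channel of lysosomes, had 267, 203 and 211 counts and a log2 difference of -0.40 (interval -0.66 to -0.13). The ferroxidase gene HEPH, at 3, 4 and 11 counts, was too low for a call. The exporter ferroportin, SLC40A1, and transferrin, TF, were at 0 in every library, which allows up to 0.125 to 0.132 CPM.

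Of 7 storage and delivery genes, 6 passed, 3 (50.0%) with intervals above 0 and 2 (33.3%) below at 100 nM, beside 24.0% and 25.3% of all genes. NCOA4, which carries ferritin to the lysosome for breakdown, had 4030, 4718 and 5059 counts, with log2 differences of 0.26 at 50 nM (interval 0.20 to 0.32) and 0.27 at 100 nM (interval 0.21 to 0.33). It was thus higher with FTH1 in both treated libraries. The chaperones that load iron into ferritin differed in sign, with 0.14 for PCBP2 and -0.14 for PCBP1 at 100 nM. Among the regulators, FBXL5, the ligase that removes IREB2 protein, had 798, 780 and 839 counts and a value of 0.02 (interval -0.13 to 0.16), and SMAD4, of hepcidin signalling, had a log2 difference of 0.21 (interval 0.10 to 0.32). Hepcidin itself, HAMP, was at 0.

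Of 8 genes with a textbook iron-responsive element, 5 passed, 2 with intervals above 0 and 3 below at 100 nM (24.0% and 25.3% of all genes). Those among the 10 genes differed in sign, with a positive value for FTH1 and negative ones for TFRC, SLC11A2 and FTL.

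Of 13 heme synthesis genes, 12 passed, with 4 intervals (33.3%) above 0 and 3 (25%) below at 100 nM, against 24.0% and 25.3% of all genes, and a median of -0.08. Called at 25% were 3 of the 12 genes, all higher, among them ALAS1 and UROS, where 10.5% of all genes were called higher and 8.32% lower. UROS, uroporphyrinogen III synthase, had 798, 918 and 1071 counts and a log2 difference of 0.37 (interval 0.23 to 0.50). ABCB10, a mitochondrial transporter needed for heme synthesis, had 0.28 (interval 0.22 to 0.33). The erythroid synthase ALAS2 was at 0, so that ALAS1 gave all the reads of this step.

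Of 12 genes of heme transport and breakdown, 9 passed, with 0 intervals above 0 and 4 (44.4%) below at 100 nM, against 24.0% and 25.3% of all genes. HMOX2, the constitutive heme oxygenase, had 1858, 1573 and 1395 counts and a log2 difference of -0.47 (interval -0.57 to -0.37). PGRMC1 and PGRMC2, heme-binding membrane proteins, were each at -0.36. The inducible oxygenase HMOX1 had 5, 6 and 2 counts, at or near the floor of 3 counts, and no fold is given.

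Of 18 genes of mitochondrial cluster assembly and export, all passed, with 2 intervals (11.1%) above 0 and 4 (22.2%) below at 100 nM, against 24.0% and 25.3% of all genes, and a median of -0.00. IBA57, a late-acting assembly factor, was the most different, at 612, 707 and 929 counts and a log2 difference of 0.54 (interval 0.40 to 0.69). GLRX5, the glutaredoxin that takes clusters over from the scaffold, had -0.42 (interval -0.52 to -0.33) and NFS1, the cysteine desulfurase that gives the sulfur, -0.31 (interval -0.43 to -0.19). ISCU, the scaffold to which NFS1 delivers sulfur, stayed within counting error of DMSO, while NFS1 and GLRX5 were lower.

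**Figure D4:**
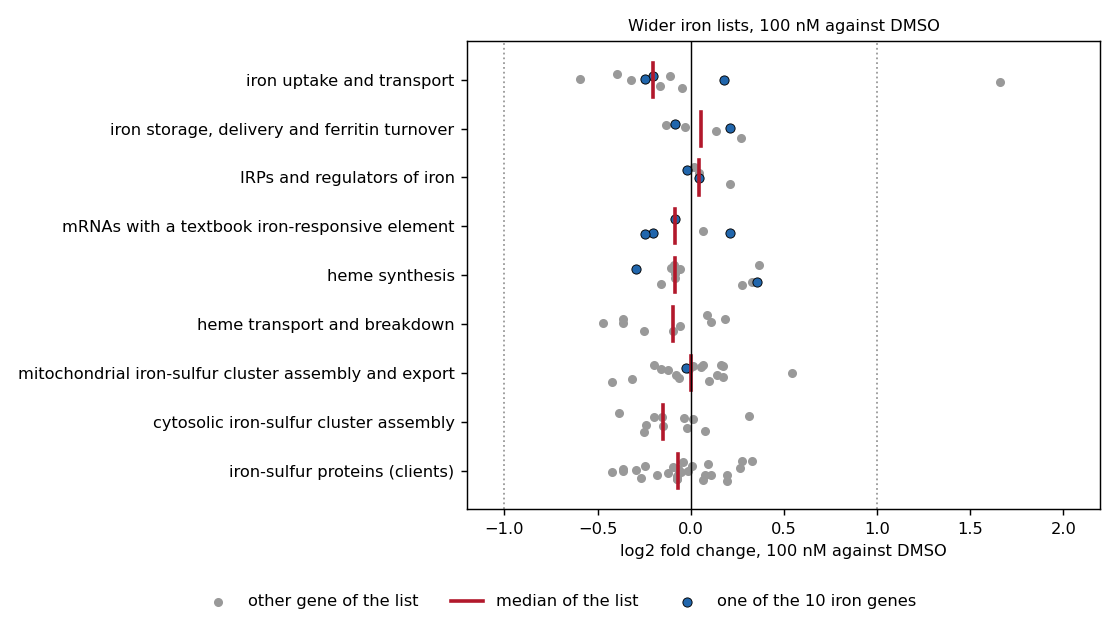
Log2 difference at 100 nM against DMSO (x axis) for each gene past the count minimum in 9 iron lists (rows); blue points are the 10 iron genes, grey points other genes and red bars the medians. Except HEPH, at 3 to 11 counts, every gene lay within 2-fold, and the medians ran from -0.20 for uptake and transport to 0.05 for storage.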

How the data were processed

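RNA was prepared from Molm13 cells and sequenced by the authors as stranded mRNA libraries (75-base paired reads), 1 library for each of DMSO, 50 nM and 100 nM pyrvinium at 6 h. Alignment by the authors was to hg19 (Rsubread), and the deposited values are raw counts per Entrez gene, not normalized. The version and the settings for strand and multi-mapped reads are not given in the sources used here. A further table holds the authors' own comparisons and was not used. The dose of 100 nM follows the sample names.

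Symbols came from RefSeq (GRCh38.p14) by Entrez identifier, for 23696 of 25702 genes. Exon coordinates are those of the deposited files. Sequences came from GRCh37, whose GENCODE 44 exons share 37 of 38 inner exon ends of SLC11A2 and all those of the other 9 genes.

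Libraries were scaled with edgeR 4.0.16 (TMM, R 4.3.3). A gene entered if any library gave it 10 counts or more, which 12879 did. For each pair of libraries a two-sided binomial test, exact (scipy 1.17.1), was adjusted over these genes by Benjamini-Hochberg, and a call needed an adjusted p no higher than 0.05 and a 2-fold difference, the fold of the study, or one of 25%. Log2 fold changes had 0.5 counts added, and intervals are 95% Clopper-Pearson; intervals of ratio changes use a normal approximation. All cover counting error only, from 0.02 on either side for FTL to over 0.2 for ACO1. Reads were not collapsed by molecule. The procedure was tested on simulated data with counting error only, and with planted changes larger than those of the 10 genes. That test does not bear on replicate spread or on differences as small as those described here.

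Named are the 10 genes and, of each wider list, the 3 other genes with the largest difference at 100 nM and a mean of at least 100 counts; some genes that this rule names are not reported here. HEPH, BEST1, markers and genes at or near 0 were named after their values were seen. The members and lists were chosen with earlier results of these data known. Scaling by total counts, by DESeq2 1.42.0 or by TMM without mitochondrial and member genes was tried, as were other count and fold thresholds, 5 added counts, assumed biological variation in edgeR's exact test, a dose trend, and TPM.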

Additional observations from a re-analysis of the deposited data

Results flagged for a closer look

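TFRC and FTL were each above the DMSO library at 50 nM and below it at 100 nM, with counting intervals on opposite sides of no change. For TFRC the log2 fold changes were 0.05 and -0.20, and between the doses -0.26 (interval -0.29 to -0.22, adjusted p = 3.50e-45 from the exact binomial test). For FTL they were 0.05 and -0.08, and between the doses -0.13 (interval -0.15 to -0.11, adjusted p = 1.22e-30). The test compares 2 libraries, and with 1 library per dose a difference between doses and one between these libraries cannot be told apart.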

How the results depend on the processing

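Of 180 single-gene values under another scaling, count minimum or number of added counts, all 180 kept their side of the adjusted p threshold. Among values that passed it, 0 reversed in sign. A change of sign in a value that did not pass was not counted. Other scalings moved a log2 fold change by at most 0.0078. The count of the 10 genes called at 2-fold was 0 in each comparison throughout, and at a difference of at least 25% it was 1 at 100 nM against DMSO. Biological variation (a coefficient of 0.1, 0.2 or 0.4) was also assumed in edgeR's exact test. With it, 0 of the 10 passed an adjusted p of 0.05 at any fold in any comparison, and 0 an unadjusted one. The binomial test passed 7, 3 and 4 for 100 nM against DMSO, 50 nM against DMSO and 100 nM against 50 nM. The share of all genes past these rules at any fold is not given, so these counts do not set the 10 genes apart. Unadjusted counting intervals at 100 nM against DMSO lay above 0 for 24.0% of all genes and below for 25.3%. A quasi-likelihood linear dose trend with 1 residual degree of freedom passed 2, FTH1 (adjusted p = 0.0455) and ALAS1 (adjusted p = 0.00407), and 6 at an unadjusted p, where it passed 20.4% and 33.1% of all genes. Over all genes, 303, 137 and 80 were called at 2-fold in the same order of comparisons. With a minimum of 50 counts these became 148, 44 and 14, at 1.5-fold 891, 357 and 167, and at 25% 2423, 1106 and 420. With the assumed variation of 0.1 they were 138, 27 and 15, with 0.2 12, 0 and 4, and with 0.4 0, 0 and 0 (46, 18 and 27 unadjusted). The median level of the 10 genes in DMSO was 31.9 as RPKM and 61.9 as TPM. No paired analysis was possible because each condition has 1 library. Replicate spread is unknown, and depth limits ACO1, SLC11A2 and FECH most.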

Other observations

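The cytosolic machinery that places clusters in proteins, and the proteins that hold them, are described here as values. Of 11 genes of cytosolic cluster assembly, all passed the count minimum, with 1 interval (9.09%) above 0 and 5 (45.5%) below at 100 nM, against 24.0% and 25.3% of all genes, and a median log2 fold change of -0.15. CIAPIN1, an electron carrier of this pathway, gave 1837, 1580 and 1466 counts across DMSO and the rising doses, and differed by -0.38 on the log2 scale (interval -0.48 to -0.28). The scaffold partners NUBP1 and NUBP2 differed in sign, at 0.31 (interval 0.15 to 0.48) and -0.25 (interval -0.37 to -0.13).

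Of 27 genes for proteins that hold iron-sulfur clusters, all passed, with 6 intervals (22.2%) above 0 and 11 (40.7%) below at 100 nM, against 24.0% and 25.3% of all genes. At 50 nM 8 (29.6%) lay above and 6 (22.2%) below, against 18.6% and 18.5%. At a difference of at least 25%, 1 (3.70%) was called higher and 3 (11.1%) lower at 100 nM, against 10.5% and 8.32%. The 3 largest differences were negative, and the next in size, that of RTEL1, a helicase, was positive at 0.33 on the log2 scale (1130, 1288 and 1478 counts; named after its value was seen). DNA2, a nuclease and helicase, had 1190, 1028 and 923 counts and a log2 difference of -0.42 (interval -0.55 to -0.30), ERCC2, a helicase of DNA repair, had -0.36 (interval -0.46 to -0.26), and CISD3, a mitochondrial cluster protein, had -0.36 (interval -0.50 to -0.22).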
